A study of Mus musculus with 12 samples.

Results

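Genes of the lysosomal proton pump, the lysosomal cathepsins and the lysosome-associated membrane proteins (LAMPs) were followed across the 4 genotypes of this series. Members were taken by symbol: every gene whose name starts with Atp6v, Atp6ap or Lamp followed by a digit, and the cathepsin genes Ctsa, Ctsb, Ctsc, Ctsd, Ctse, Ctsf, Ctsh, Ctsk, Ctsl, Ctso, Ctss, Ctsw and Ctsz. The rule found 41 members among 37187 genes. They comprised 13 genes of the V1 domain of the pump, 9 of its V0 domain, 3 accessory genes, 10 cysteine cathepsins, 3 other cathepsins and 3 LAMPs.

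The vacuolar proton pump (V-ATPase) splits ATP on its cytosolic V1 domain and drives protons into the lumen through its membrane-bound V0 domain. The acid it makes activates the cathepsins, proteases that digest proteins delivered by endocytosis and autophagy, while the heavily glycosylated LAMPs line the membrane and shield it from those enzymes. The pump also serves as a platform on which amino acids activate the growth kinase complex mTORC1. In blood stem cells lysosomal activity is tied to quiescence, and in myeloid cells lysosome-related granules carry much of the protease load. The MiT/TFE factors drive many lysosomal genes, and they bind the same short DNA element as MYC, the E-box CACGTG.

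Libraries came from LSK cells of mouse bone marrow, a population sorted for Sca-1 and c-Kit and against lineage markers, in which blood stem cells and multipotent progenitors are found. The groups were wild type (WT), Tet2 KO, Traf6 KO and a double knockout of both genes (dKO), with 3 libraries each. Tet2 encodes an enzyme that oxidises methylated DNA, and Traf6 a ubiquitin ligase of Toll-like and interleukin-1 receptor signalling. The series title sets TRAF6 against MYC activity in acute myeloid leukaemia. The labels give no strain, age, sex, deleter line or deleted exon, and they do not state that replicates are different mice. The p-values therefore rest on spread between libraries, which may be technical.

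Several properties of the libraries bear on every value that follows. Tet2 stood at 525, 783 and 739.6 (WT), 668, 403 and 486 (Tet2 KO), 722, 339 and 427 (Traf6 KO) and 326, 197 and 261 (dKO), and Traf6 at 1935, 3006 and 2957 (WT), 3127, 1432 and 1776 (Tet2 KO), 2474, 854 and 568 (Traf6 KO) and 799, 1313 and 967 (dKO), as normalised signal in replicates 1, 2 and 3. The library labelled Tet2 KO 1 thus had Tet2, and the library labelled Traf6 KO 1 had Traf6, inside the WT range. Below the WT range were also Tet2 in Traf6 KO 2 and 3 (339 and 427) and Traf6 in Tet2 KO 2 and 3 (1432 and 1776). A value below WT was therefore not particular to the targeted gene, and Tet2 did not separate the 2 single knockouts. Xist, made from the inactive X chromosome, ran from 990.3 to 3826 in the single knockouts and reached at most 17 in WT and dKO. The Y-linked Eif2s3y was at 2812 or more in WT and dKO and at 1524, 2.32 and 0.888 in Traf6 KO, so Traf6 KO 1 held both transcripts. Sex therefore cannot be told apart from genotype where a single knockout is compared, but WT and dKO were alike in these genes. Recovered reads numbered 22169673 to 53921402 per library. In dKO, short transcripts read higher and long ones lower than in WT: the rank correlation across genes of the change with transcript length was -0.52, -0.59 and -0.60 in dKO 1, 2 and 3, and -0.40 to 0.29 in the other libraries. The normalised total of dKO 3 was 39973892, against 25557760 to 28916082 elsewhere. Kit, which encodes the sorting marker c-Kit, stood at 44484, 47837 and 47804 in WT and 11935, 4099 and 4105 in dKO, and Ly6a, which encodes Sca-1, at 2339, 2205 and 1989.9 in WT and 1968, 2446 and 13218 in dKO.

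Of the 41 members, 31 had a signal of at least 10 in at least 3 libraries and were tested, and 10 did not. The lowest signal of any tested member in any library was 192, for Atp6v1g2 in WT 1, so no member was tested on the strength of 1 group. The 10 below the limit include subunit isoforms known from other tissues. Atp6v1e2, Atp6v1g3 and Atp6ap1l had 0 reads in every library. Atp6v1b1, a kidney and epididymis isoform, had 1 read in 1 library, and Atp6v0a4, Atp6v0e2 and Atp6v1c2 had at most 9, 5 and 5 reads. Ctsk, the collagen-cutting cathepsin of osteoclasts, had at most 9 reads, and Lamp3, known from mature dendritic cells, at most 4. Atp6v0d2, an osteoclast and macrophage isoform, had 0 to 11 reads in all libraries but 1, and 41 in dKO 2. The subunit isoforms above the limit were A, B2, C1, D, E1, F, G1, G2 and H in V1 and a1, a2, b, c, d1 and e in V0.

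Promoter windows from RefSeq (build GRCm38.p6, 250 bases before to 50 after the start of a transcript, 300 in all) covered 30 of the 41 members with 34 windows. They are shown because MYC and the MiT/TFE factors share the element searched. A link of the element to the changes in dKO was not tested. The motif CACGTG reads the same on both strands. It was present in 9 member windows, 26.5%, against 7.15% of all 32851 windows, which were not limited to expressed genes. Its extended form TCACGTGA, which contains CACGTG, was present in 5 member windows, 14.7%, against 0.974% of all windows. The 5 genes with the extended form were Ctsa, Ctsd, Atp6v0d1, Atp6v1a and Atp6v0e, and each site is printed 5′ to 3′ on the strand of the gene with CACGTG in capitals:
Ctsa (chr2:164833749-164833778): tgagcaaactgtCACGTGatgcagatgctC
Ctsd (chr7:142387908-142387937): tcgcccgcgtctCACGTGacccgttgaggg
Atp6v0d1 (chr8:105566050-105566079): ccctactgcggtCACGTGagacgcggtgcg
Atp6v1a (chr16:44139373-44139402): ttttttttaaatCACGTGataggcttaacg
Atp6v0e (chr17:26676387-26676416): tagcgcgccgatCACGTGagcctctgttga
The last capital of the Ctsa line is the first letter of a second CACGTG, extended as well, which lies 5 bases after the start site. CACGTG without the extension was found in the windows of 4 more members, Atp6v0b, Lamp1, Ctsl and Ctsf. Lamp1 carried 4 copies, 61, 45, 28 and 15 bases before the start, and Ctsf carried 1, 79 bases before it:
Lamp1 (chr8:13159076-13159160): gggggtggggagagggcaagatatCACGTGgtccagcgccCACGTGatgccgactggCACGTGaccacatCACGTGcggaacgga
Ctsf (chr19:4855074-4855103): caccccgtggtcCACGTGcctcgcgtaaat
The window of Ctsz, whose transcript rose in dKO, held no CACGTG, and the 100 bases before its start are printed for comparison:
Ctsz (chr2:174439040-174439139): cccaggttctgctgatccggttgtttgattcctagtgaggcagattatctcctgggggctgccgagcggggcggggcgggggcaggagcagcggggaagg
A match describes these letters only, and binding of a factor was not measured here.

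Levels between genes were compared per kilobase, with the length of the principal transcript (the shortest of those that the APPRIS annotation ranks best). In WT the order was led by Ctsd, the main aspartic protease of lysosomes (7110.3 signal per kilobase), then Lamp1 (4916), Ctse (4295), Lamp2 (3548), Atp6ap1 (2845) and Atp6ap2 (2677). The pump subunits spread from 2665 for Atp6v0e down to 149 for Atp6v1g2, the lowest tested member. Among a-subunit isoforms, Atp6v0a2 (573) stood above Atp6v0a1 (213). Ctsd and Lamp1 also ranked first and second in Tet2 KO and Traf6 KO. In dKO the order per kilobase was Atp6v0e (11803), Ctsd (10775), Ctsz (8170.5), Atp6v1f (6549) and Lamp1 (6517), and Ctse stood at place 18, against place 3 in WT. The places of Atp6v0e and Atp6v1f rested on dKO 3: without it Ctsd (11609.7), Lamp1 (7087) and Ctsz (6006) led, Atp6v0e stood at place 4 (5684) and Atp6v1f at place 12 (2904). Their principal transcripts have 823 and 703 nucleotides, and per kilobase of its longest transcript, 2812 nucleotides, Atp6v0e had 3455 in dKO and place 8.

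**Figure D1:**
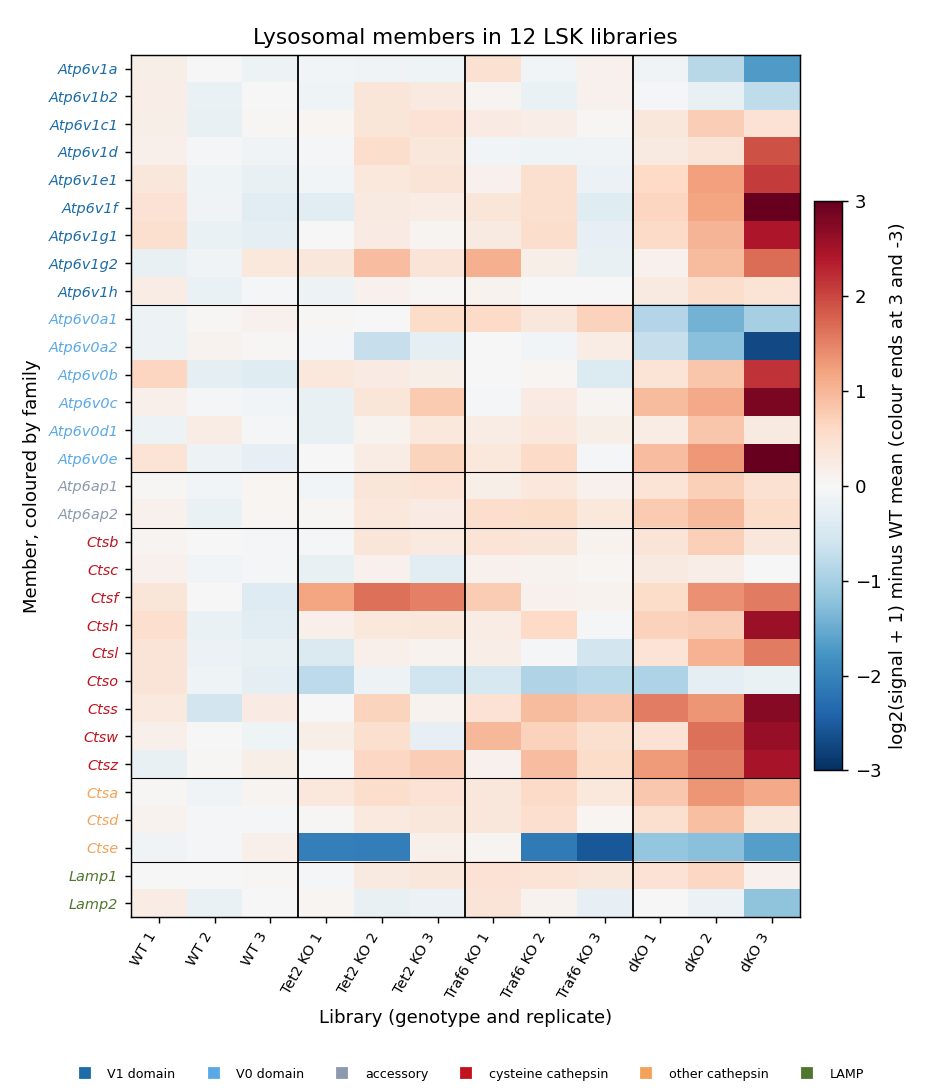
Heat map of the 31 tested members (rows, grouped by family) in the 12 libraries (columns), with colour giving log2(signal + 1) minus the WT mean and ending at 3 and -3. Most cathepsin and short pump-subunit rows are red in the 3 dKO columns and deepest in dKO 3, Atp6v0a1 and Atp6v0a2 are blue there, and Ctse is blue in 2 libraries of each single knockout.

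The double knockout was compared with WT first. On the log2(signal + 1) scale of the test, 16 of 31 tested members rose and 3 fell (limma, Benjamini-Hochberg adjusted p under 0.05), where 21.9% of all 14045 tested genes were called higher and 26.5% lower. The median change of the members was 0.76, against -0.09 over all genes. The risers were 6 cysteine cathepsins, 2 other cathepsins, 3 V1 genes, 3 V0 genes and both tested accessory genes. The 3 that fell were the long pump genes Atp6v0a1, Atp6v0a2 and Atp6v1a, and neither LAMP passed. The dKO and WT libraries did not overlap for 20 members higher in dKO and 3 lower, against 27.9% and 30.5% of all genes. Separation of dKO from WT, given for single genes below, was thus common among all genes. The share of genes in which dKO lay apart from all other libraries was not counted. With libraries scaled to equal totals, which moved the median of all genes to -0.34, 11 members rose and 4 fell (16.3% and 29.7% of all genes), and none of the named members changed direction. Without WT 2 or WT 3 the count of called members went from 19 to 11 or 10, and with only the 2 groups in the fit it was 12, while all genes called went from 48.3% to 33.5% or 33.8%, and to 36.1%. These are bulk libraries, in which more RNA per cell and more cells of a kind that makes it cannot be told apart.

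Among the cysteine cathepsins, Ctss and Ctsz had the largest changes on the deposited scale, an order that did not hold after the removal of length trends described further on. Ctsz, a carboxypeptidase (chromosome 2, 174427493 to 174439039, GRCm38, minus strand), read 2775, 3321 and 3657 (WT), 3241, 4987 and 5375 (Tet2 KO), 3543, 6146 and 4709 (Traf6 KO) and 7791, 9519 and 18011 (dKO). All 3 dKO libraries lay above the other 9, with dKO 3 far above the rest, and the rise against WT had log2 change 1.77 ± 0.32 (SE), adjusted p = 0.00127. It passed under every alternative run, with values from 0.80 to 2.02. Ctss, which trims the invariant chain of MHC class II, read 840.1, 464 and 812 (WT), 677, 1083 and 730.4 (Tet2 KO), 915, 1314 and 1190.2 (Traf6 KO) and 1969, 1703 and 4511 (dKO). Its dKO libraries again lay above all others (log2 change 1.86 ± 0.37 (SE), adjusted p = 0.00222), and the call ended with the length trend of the longest transcript removed (0.71), but not with that of the principal one (0.93). Ctsz overlaps Nelfcd on the opposite strand and the library kit does not mark strand, so reads from a stretch that both genes share cannot be separated. This holds for each opposite-strand neighbour named from here on. The overlaps are of whole gene spans, and overlap of their exons was not measured. Only protein-coding neighbours are named. Non-coding genes or pseudogenes also overlap Ctss, Ctsl, Ctsc, Atp6v0a1, Atp6v0a2, Atp6v0b and Atp6v1e1, on the same or the opposite strand.

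Ctsw, a protease known from NK and cytotoxic T cells, read 564, 500.4 and 463 (WT), 572, 703 and 428 (Tet2 KO), 1010.5, 816 and 710.0 (Traf6 KO) and 682, 1593 and 3097 (dKO). The dKO libraries exceeded WT but dKO 1 lay below Traf6 KO 1 to 3 (log2 change 1.56 ± 0.43 (SE), adjusted p = 0.0105, 1.04 without dKO 3). Ctsw overlaps Fibp on the opposite strand. Ctsh, an aminopeptidase, read 431, 263 and 244 (WT), 335, 378 and 386 (Tet2 KO), 356, 455 and 288 (Traf6 KO) and 486, 507 and 1827 (dKO). It rose against WT (log2 change 1.34 ± 0.45 (SE), adjusted p = 0.027), with dKO 3 far above both other dKO libraries, and the call ended without dKO 3 (0.71), WT 2 (1.24) or WT 3 (1.18).

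Ctsl, a broad endopeptidase of lysosomes (chromosome 13, 64359337 to 64370890), read 1799, 1216 and 1170.5 (WT), 1013, 1509 and 1467 (Tet2 KO), 1574, 1320.2 and 927 (Traf6 KO) and 1818, 2819.9 and 4044 (dKO). The dKO libraries lay above every other library, dKO 1 by a narrow margin over WT 1 (log2 change 1.01 ± 0.33 (SE), adjusted p = 0.0221). That call ended without WT 2 (0.92), WT 3 (0.89), dKO 2 (0.99) or dKO 3 (0.73). Ctsf, which can also process the invariant chain in macrophages, read 900.4, 700.3 and 532 (WT), 1591, 2186 and 1992 (Tet2 KO), 1186, 756 and 747 (Traf6 KO) and 1013, 1799 and 2037 (dKO). Here both dKO and Tet2 KO stood above WT without overlap, while Traf6 KO overlapped WT. In dKO it rose with log2 change 1.16 ± 0.32 (SE), adjusted p = 0.0106, a call that ended without WT 3 (0.96).

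The other 3 tested cysteine cathepsins did not pass in dKO against WT. Ctsb, one of the most abundant cathepsins, read 11488, 10627 and 10306 (WT), 10342, 13979 and 13282 (Tet2 KO), 14284, 13994 and 11655 (Traf6 KO) and 14032, 17733 and 13677 (dKO), with dKO above WT throughout (log2 change 0.48 ± 0.19 (SE), adjusted p = 0.056), and overlaps Fdft1 on the opposite strand. Ctsc, the dipeptidyl peptidase that activates granule serine proteases, stayed between 4487 and 6877 in all 12 libraries (log2 change 0.15). Ctso had log2 change -0.46 (adjusted p = 0.172) over a range of 1960.4 to 4879.6.

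Of the cathepsins outside the cysteine class, the serine carboxypeptidase Ctsa and the aspartic protease Ctsd rose. Ctsa (chromosome 2, 164832873 to 164841032), which also protects neuraminidase and beta-galactosidase in the lysosome, read 5212, 4729.7 and 5465 (WT), 6369.6, 7332 and 6940.1 (Tet2 KO), 6533, 7691 and 6336 (Traf6 KO) and 8989, 12871 and 11325 (dKO). The groups were ordered without overlap: all WT libraries were below all single knockout libraries, and those below all dKO libraries. The rise in dKO against WT had log2 change 1.09 ± 0.19 (SE), adjusted p = 0.00114, passed under every alternative run (0.84 to 2.05) and had the smallest adjusted p of all members. Ctsa has the extended E-box shown above. It overlaps Neurl2 and Pltp on the opposite strand, so its reads may include theirs. Ctsd read 16148, 14699 and 14524 (WT), 15530.0, 18610.1 and 19139 (Tet2 KO), 19089, 21436 and 15670.3 (Traf6 KO) and 21068, 28319 and 19366 (dKO). Its dKO libraries lay above WT and Tet2 KO and overlapped Traf6 KO (log2 change 0.58 ± 0.20 (SE), adjusted p = 0.0298), and the call ended without WT 2 (0.56), WT 3 (0.55) or dKO 2 (0.42). It also shares its locus with Gm49369 on the same strand.

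Ctse, an aspartic protease of endosomes (chromosome 1, 131638306 to 131675505), split within the single knockouts. It read 8439, 8888 and 10068 (WT), 2198, 2156 and 10101 (Tet2 KO), 9614, 2077 and 1559 (Traf6 KO) and 4077, 3839.9 and 2874 (dKO). Each single knockout held 1 library at the WT level, Tet2 KO 3 and Traf6 KO 1, and the other 2 far below it, and all dKO libraries were low. Against WT the dKO difference was log2 change -1.36 ± 0.63 (SE), adjusted p = 0.0908, short of the threshold. Tet2 KO 3 and Traf6 KO 1 held 486 of Tet2 and 2474 of Traf6, so only the second of them was among the libraries with their target at the WT level.

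**Figure D2:**
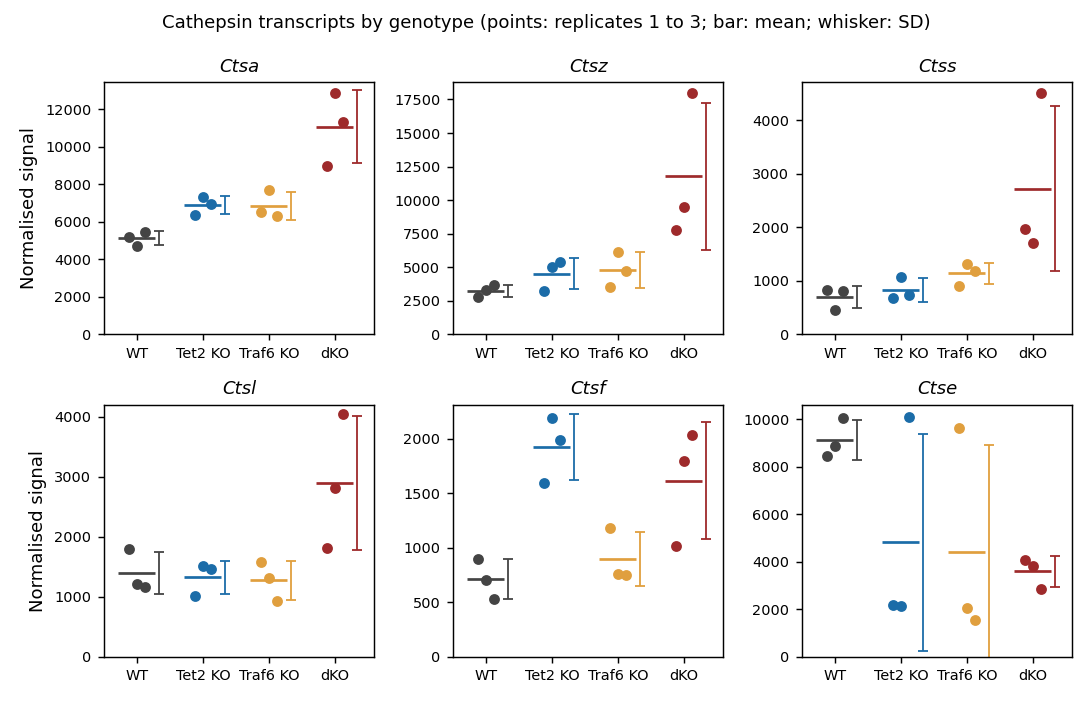
Normalised signal of 6 cathepsin genes by genotype, with points for replicates 1 to 3 from left to right, a bar for the mean and a whisker for the SD beside it (for Ctse in Traf6 KO the whisker is cut by the axis at 0). Ctsa separates WT, the single knockouts and dKO, Ctsf is high in Tet2 KO and dKO, and Ctse splits within both single knockouts.

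In the V1 domain, Atp6v1e1, Atp6v1f and Atp6v1g1 rose and Atp6v1a fell. Atp6v1e1, a subunit of the peripheral stalks, read 3707, 2666 and 2516 (WT), 2745, 3629 and 3792 (Tet2 KO), 3216, 4076 and 2578 (Traf6 KO) and 4397, 6868 and 12448 (dKO), and its dKO libraries lay above all others (log2 change 1.31 ± 0.33 (SE), adjusted p = 0.00723). It overlaps Slc25a18 on the opposite strand. Atp6v1f, part of the central rotor, read 1444, 987 and 842 (WT), 847, 1284 and 1247 (Tet2 KO), 1365, 1476 and 828 (Traf6 KO) and 1673, 2410.4 and 9728 (dKO). It had log2 change 1.68 ± 0.51 (SE), adjusted p = 0.017, but 0.92 without dKO 3, and the call ended without WT 2 (1.62) or WT 3 (1.51). Atp6v1g1, a stalk subunit, read 1576, 986 and 938 (WT), 1122, 1335 and 1201 (Tet2 KO), 1374, 1624 and 951 (Traf6 KO) and 1679.8, 2285 and 6053 (dKO). In both genes dKO exceeded WT throughout, dKO 3 by the most. Atp6v1g1 had log2 change 1.33 ± 0.40 (SE), adjusted p = 0.0164, 0.79 without dKO 3, and no call without WT 2 (1.23) or WT 3 (1.19).

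Atp6v1a, the subunit that holds the catalytic site for ATP, read 5251, 4634 and 4197 (WT), 4434, 4339 and 4272 (Tet2 KO), 6457, 4392 and 5073 (Traf6 KO) and 4317, 2623 and 1433 (dKO). The dKO libraries fanned out, with dKO 1 inside the WT range and dKO 3 lowest (log2 change -0.88 ± 0.32 (SE), adjusted p = 0.0359). The call ended without WT 1 (-0.80), WT 2 (-0.89), WT 3 (-0.96), dKO 2 (-0.91) or dKO 3 (-0.47). Its partner in the catalytic ring, Atp6v1b2, read 5799.9, 4403 and 4994 (WT), 4579.7, 6481 and 6109.8 (Tet2 KO), 5359, 4361 and 5517 (Traf6 KO) and 4817, 4328 and 2992 (dKO). It did not pass, with 2 dKO libraries below the WT range (log2 change -0.34). The remaining V1 members had log2 changes of 0.51 (Atp6v1c1, 2889 to 5585), 0.86 (Atp6v1d, 2358 to 9772), 0.40 (Atp6v1h, 3947 to 6565) and 0.92 (Atp6v1g2, 192 to 717) without a call. Atp6v1b2, Atp6v1h and Atp6v1g2 overlap Slc18a1, Rgs20 and Nfkbil1 on the opposite strand. For Atp6v1d the upper end came from dKO 3 alone, which read 9772 against at most 3699.9 elsewhere.

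In the V0 domain 3 small membrane subunits rose and both tested a subunits fell. Atp6v0c, the proteolipid of the proton-carrying ring, read 257, 222 and 218 (WT), 197, 297 and 399 (Tet2 KO), 227, 275 and 246 (Traf6 KO) and 448, 514 and 1648 (dKO), with all dKO libraries above the other 9 (log2 change 1.64 ± 0.45 (SE), adjusted p = 0.00971, 1.05 without dKO 3). It has 2 named pseudogenes, so its count is uncertain. Atp6v0e, a small membrane subunit, read 2867, 1916 and 1798 (WT), 2149, 2495 and 3427 (Tet2 KO), 2678, 3199 and 2076 (Traf6 KO) and 4056, 5301 and 19786 (dKO). It likewise stood highest in dKO (log2 change 1.81 ± 0.46 (SE), adjusted p = 0.00722, 1.11 without dKO 3). Atp6v0b, a second proteolipid, read 2609.7, 1365 and 1303 (WT), 2077, 1990.3 and 1889 (Tet2 KO), 1693, 1739 and 1247 (Traf6 KO) and 2214, 2988 and 7453 (dKO). Its dKO 1 lay below WT 1, and the rise (log2 change 1.14 ± 0.39 (SE), adjusted p = 0.0298) ended without WT 2 (0.99), WT 3 (0.96) or dKO 3 (0.62). Atp6v0d1, which joins the ring to the rotor, read 1302, 1686 and 1394 (WT), 1236, 1561 and 1817 (Tet2 KO), 1685, 1820.1 and 1636 (Traf6 KO) and 1683, 2593 and 1764 (dKO). It did not pass, and dKO 1 lay inside the WT range (log2 change 0.44).

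The a subunits form the channel through which protons pass and help to direct the pump to its organelle. Atp6v0a1 (chromosome 11, 101009452 to 101063719, plus strand) read 761, 875 and 928 (WT), 874, 839 and 1249 (Tet2 KO), 1263, 1075 and 1377 (Traf6 KO) and 462, 318 and 429 (dKO). All dKO libraries lay below all 9 others, and Traf6 KO lay above WT. The gene fell against WT with log2 change -1.10 ± 0.26 (SE), adjusted p = 0.00502. Atp6v0a2 (chromosome 5, 124628576 to 124724455) read 2768, 3262 and 3151 (WT), 2932, 1895 and 2495 (Tet2 KO), 3047, 2905 and 3567 (Traf6 KO) and 1875, 1270.4 and 470.0 (dKO). Its dKO libraries were below every other library as well, dKO 3 by far the lowest (log2 change -1.55 ± 0.39 (SE), adjusted p = 0.00657, -0.98 without dKO 3). The a3 isoform gene Tcirg1, outside the naming rule, read 1505, 1629 and 1653 in WT and 1904, 1153 and 838 in dKO and did not pass (log2 change -0.38, adjusted p = 0.313).

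Both tested accessory genes lie on the X chromosome and rose in dKO against WT. Atp6ap1, a chaperone-like partner of V0, read 6333, 5852 and 6496 (WT), 5833, 7974 and 8326 (Tet2 KO), 6989, 7809.5 and 6798 (Traf6 KO) and 8304, 10273 and 8486 (dKO). Its dKO range was above WT and met Tet2 KO (log2 change 0.53 ± 0.20 (SE), adjusted p = 0.0401). That call ended without each WT library, Tet2 KO 2, Traf6 KO 1, Traf6 KO 2 or dKO 2, with values between 0.43 and 0.56. Atp6ap2, also known as the prorenin receptor, read 6744, 5425 and 6495 (WT), 6369.6, 7657 and 7328 (Tet2 KO), 8888, 9141 and 7683 (Traf6 KO) and 10590.0, 12152 and 9061 (dKO). Its dKO libraries lay above WT and Tet2 KO and met Traf6 KO in range (log2 change 0.76 ± 0.19 (SE), adjusted p = 0.00665), and it kept its call with any 1 library left out. Lamp1, the higher LAMP per kilobase though not in WT signal, read 10814, 10904 and 11154 (WT), 10638, 13259 and 13780.4 (Tet2 KO), 14850.4, 14517 and 13833 (Traf6 KO) and 14788, 16806 and 11981 (dKO). Lamp2, which also serves chaperone-mediated autophagy, read 14805, 11017 and 12536 (WT), 13158, 10885 and 11158 (Tet2 KO), 16692, 13734 and 10705 (Traf6 KO) and 12684, 11165 and 5529.6 (dKO). Lamp1 overlaps Grtp1 on the opposite strand. It was above WT in every Traf6 KO and dKO library but did not pass (log2 change 0.39 ± 0.19 (SE), adjusted p = 0.0983), and Lamp2, X-linked too, overlapped WT apart from its low value in dKO 3 (log2 change -0.46, adjusted p = 0.201).

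The change in dKO followed transcript length among the members as it did among all genes. By length of the principal transcript, the 9 members of up to 1500 nucleotides had a median log2 change of 1.64, the 14 above that and up to 3000 had 0.52 and the 8 over 3000 had -0.46. Over all genes with a length, 13684, these medians were 1.34, 0.21 and -1.15. The Spearman correlation of change with length was -0.80 over the 31 members and -0.65 over all genes, and with the longest transcript -0.54 and -0.62. Members are not independent replicates and share the libraries, so these correlations describe the 2 groups of libraries only. Ctsa, Ctsb and Atp6v1d, with principal transcripts of 3646, 4743 and 3667 nucleotides, had positive changes where the median gene of that length was lower, and Ctse lay below genes of its length.

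**Figure D3:**
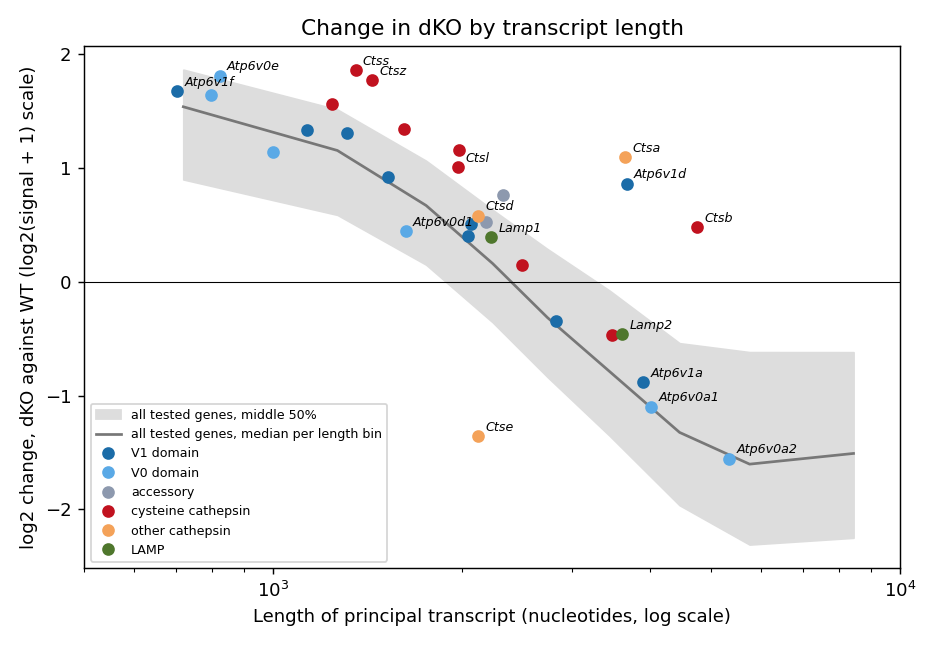
Log2 change in dKO against WT (vertical axis) against the length of the principal transcript (horizontal, log scale) for the 31 tested members, with the median and the middle 50% of all tested genes per length bin in grey. The grey median falls from 1.54 in the shortest bin to -1.51 in the longest and most members fall with it. Ctsa, Atp6v1d and Ctsb stand furthest above the band, and Ctsz, Ctss, Ctsf, Ctsh and Atp6ap2 are among the others above it. Ctse stands below it.

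The values were therefore also fitted after a smooth trend of each library on transcript length and GC content had been taken off. With the trend of the longest transcript removed, 12 members rose and 1 fell in dKO against WT, where 15.9% of genes were called higher and 13.3% lower, and the median of the members was 0.20 against -0.04 over all genes. Of the 16 risers 8 kept their call: Atp6v0c (1.47), Atp6v0e (1.61), Atp6v1e1 (1.33), Ctsa (1.78), Ctsf (0.77), Ctsh (1.23), Ctsl (2.13) and Ctsz (0.80). The other 8 lost it, and Atp6v0b (-0.31), Atp6v1f (-0.01) and Atp6v1g1 (-0.04) changed sign. Ctsb (1.42), Atp6v1c1 (1.31), Atp6v1d (1.09) and Atp6v1h (0.95) passed here though not in the fit as deposited. All 3 falls lost their call, and Ctse fell (-1.92).

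Several members have a longest transcript that differs much from the principal one, 6168 against 1971 nucleotides for Ctsl. With the trend of the principal transcript removed instead, the risers in dKO against WT were Atp6ap2 (0.55), Atp6v1d (1.40), Ctsa (2.05), Ctsb (1.66), Ctsf (0.90), Ctss (0.93) and Ctsz (0.95), and 0 fell, where 14.3% of all genes were called higher and 12.3% lower. Ctsa, Ctsf and Ctsz rose in all 3 fits, and 5 of these 7 risers were cathepsins. Atp6v0c had 0.11, Atp6v0e 0.33 and Atp6v1e1 0.33 there, without a call, so these pump subunits kept their call in the first removal only. The same held for the cathepsins Ctsh and Ctsl. The pump subunit Atp6v1d and the cathepsin Ctsb were called in both removals, though not as deposited. Longest and principal transcripts differ widely for Atp6v0c, Atp6v0e and Atp6v1e1 (2567 and 796, 2812 and 823, and 2928 and 1312 nucleotides). They also differ for Ctsl, as given above, and for Ctsh (2743 and 1617), but not for Atp6v1d and Ctsb. Ctsa and Ctsz have the same length in both removals, and Ctsf nearly so (2093 and 1980). For Ctsa, Ctsf and Ctsz the second removal was therefore close to a repeat of the first and not a separate check. Which isoform the cells used was not measured here.

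**Figure D4:**
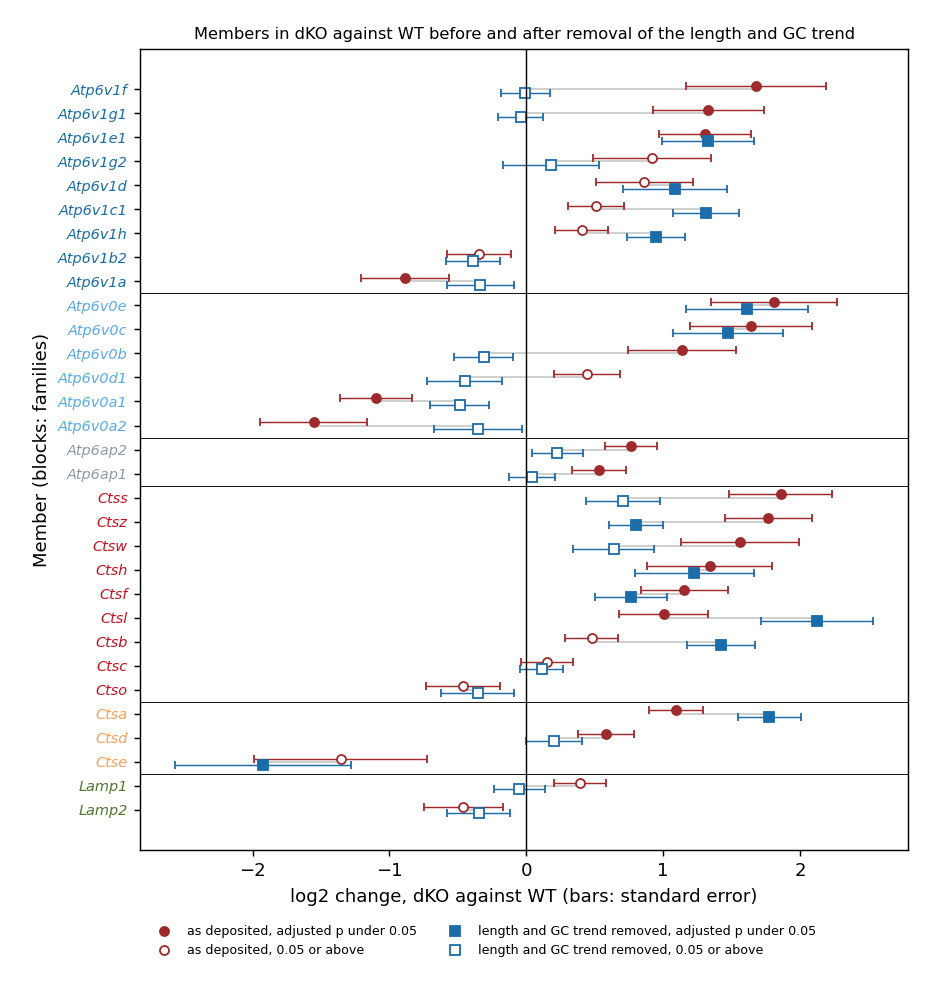
Log2 change in dKO against WT with its standard error for each tested member, as deposited (red circles) and after removal of the length and GC trend of the longest transcript (blue squares), filled where the adjusted p was under 0.05. Ctsa, Ctsf, Ctsh, Ctsl and Ctsz stay filled in both, and so do the pump genes Atp6v0c, Atp6v0e and Atp6v1e1. The cathepsins Ctsd, Ctss and Ctsw are filled only as deposited, and Atp6v1f, Atp6v1g1 and Atp6v0b move from over 1 to below 0.

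The double knockout was next compared with each single knockout. These comparisons share the dKO libraries with the one above, so their values are given side by side and not as independent support. Against Tet2 KO 11 members rose and 2 fell, where 15.5% of genes were called higher and 19.9% lower (median 0.38 against -0.12 over all genes). Against Traf6 KO 11 rose and 3 fell, where 17.3% and 20.7% were called (median 0.37 against 0.02). After removal of the length and GC trend, 7 rose and 1 fell against Tet2 KO (9.16% and 7.32% of all genes), and 9 rose and 1 fell against Traf6 KO (11.0% and 9.04%). Called higher in all 3 dKO comparisons were Atp6v0c, Atp6v0e, Atp6v1e1, Atp6v1f, Atp6v1g1, Ctsa, Ctsl, Ctss and Ctsz. Of these 9, Atp6v0c, Atp6v1e1, Ctsa and Ctsl were also called in all 3 with the trend of the longest transcript removed, and Ctsa alone with that of the principal one as well, where Atp6v0c had -0.02 against Tet2 KO. Ctsb, outside these 9, was called higher in all 3 comparisons with either trend removed, and in none of them as deposited. The longest and the principal transcript have the same length for Ctsa and Ctsb, but not for Atp6v0c, Atp6v1e1 and Ctsl.

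Against Tet2 KO, Ctss had log2 change 1.61 ± 0.37 (SE), adjusted p = 0.0111, Ctsz 1.31 (adjusted p = 0.0122) and Ctsa 0.67 (adjusted p = 0.0208). Ctsw and Atp6ap2 rose in this comparison as well, with 1.43 and 0.57. Ctsf, high in Tet2 KO too, had -0.30 (adjusted p = 0.481). Against Traf6 KO, Ctsz had log2 change 1.23 ± 0.32 (SE), adjusted p = 0.014, Ctss 1.13 (adjusted p = 0.0324) and Ctsa 0.68 (adjusted p = 0.02). Atp6v0b (1.25) and Atp6v1d (0.96) rose there as well. The pump subunits called in both included Atp6v0e with 1.51 and 1.53 and Atp6v1f with 1.62 and 1.52.

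Atp6v0a1 fell against both, with log2 change -1.29 ± 0.26 (SE), adjusted p = 0.00784 against Tet2 KO and log2 change -1.63 ± 0.26 (SE), adjusted p = 0.00212 against Traf6 KO. After removal of the length and GC trend it still fell, with -0.78 and -1.10. With the trend of the principal transcript removed the fall against Tet2 KO was not called (-0.41), whereas the fall against Traf6 KO passed under every alternative run (-1.82 to -0.71). Atp6v0a2 fell with -1.21 and -1.60, and Atp6v1a fell against Traf6 KO with -1.05. None of those 3 calls held with the trend removed, and the fall of Atp6v0a1 against WT did not either (-0.49).

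Single libraries decided many of these calls. Without the library labelled Tet2 KO 1, in which Tet2 stood at the WT level, Atp6v0a1 alone was called against Tet2 KO (-1.36), and Ctsz had 1.09 without a call. The count was 8 without Tet2 KO 2, Tet2 KO 3 or dKO 2, and 5 without dKO 3. Without the library labelled Traf6 KO 1, 3 members were called against Traf6 KO, namely Ctsl, Atp6v0a1 and Atp6v0a2. The count was also 3 without Traf6 KO 3 (Ctsz, Atp6v0a1 and Atp6v0a2) and 4 without dKO 3. Without both libraries at the WT level of their target, 0 members were called against Tet2 KO and 3 against Traf6 KO. With only the compared groups in the fit, 0 and 1 were called. Over all genes the share called moved too. Against Tet2 KO it went from 35.3% to 6.17% without Tet2 KO 1, 24.4%, 25.4% and 23.5% without Tet2 KO 2, Tet2 KO 3 or dKO 2, 23.4% without dKO 3, 0.406% without both libraries and 0.171% with the compared groups alone. Against Traf6 KO it went from 38.0% to 16.2% without Traf6 KO 1, 14.7% without Traf6 KO 3, 22.0% without dKO 3, 12.1% without both libraries and 6.91% with the compared groups alone. The changes of Atp6v1f against the single knockouts were 0.86 and 0.76 without dKO 3, and those of Ctsa 0.65 and 0.66.

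Neither single knockout changed a member past the threshold. In Tet2 KO against WT 0 of 31 members were called by limma (0.413% of all genes were), 2 had an unadjusted p under 0.05, edgeR called 0 and DESeq2 called 1. The median change was 0.20, against 0.02 over all genes. Ctsf had the smallest adjusted p, with log2 change 1.45 ± 0.32 (SE), adjusted p = 0.0788 and all 3 Tet2 KO libraries above all WT libraries. Its adjusted p ran from 0.00229 (DESeq2) to 0.393 (without WT 3) over the alternatives, and it passed in 6 of them, while its value without the library labelled Tet2 KO 1 was 1.59. Groups did not overlap for 3 members higher in Tet2 KO, Ctsf, Ctsa and Atp6v1g2, and for 0 lower, against 8.07% and 11.1% of all genes. Ctsa had 0.42 and Ctse -1.33, both without a call.

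In Traf6 KO against WT 0 members were called by limma (0.271% of genes), 3 had an unadjusted p under 0.05, and edgeR and DESeq2 called 0. The median change was 0.18, against -0.03 over all genes. Groups did not overlap for 8 members higher in Traf6 KO, namely Atp6ap1, Atp6ap2, Atp6v0a1, Ctsa, Ctsb, Ctss, Ctsw and Lamp1, and for 1 lower, Ctso, against 9.68% and 11.0% of all genes. Log2 changes were 0.73 for Ctss, 0.72 for Ctsw, 0.53 for Atp6v0a1, 0.46 for Atp6ap2, 0.41 for Ctsa, 0.39 for Lamp1 and -0.73 for Ctso. Ctse, with its split libraries, had -1.53 (adjusted p = 0.585).

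Whether dKO differed from the sum of the single knockouts was asked with the interaction, the change from Tet2 KO to dKO less the change from WT to Traf6 KO. By limma 0 members passed (0.221% of genes), 3 had an unadjusted p under 0.05, edgeR called 0 and DESeq2 called 1. The median was 0.26, against -0.01 over all genes. Atp6v0a1 had the smallest adjusted p, with log2 change -1.82 ± 0.37 (SE), adjusted p = 0.0893, and was the DESeq2 call: it stood above WT in Traf6 KO and below it in dKO. Without dKO 1 the count was 5, where 17.4% of all genes were called. Ctsz had 0.78 ± 0.45 (SE) and Ctsa 0.26 ± 0.28, and neither passed.

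Summed over members, the cathepsins (12 tested genes and Ctsk) gave 59713, 54194 and 55806 signal in WT and 70763, 90282 and 89629.5 in dKO. As a share of all signal this was 0.229, 0.201 and 0.202% in WT and 0.247, 0.312 and 0.224% in dKO, so the share in dKO 3 fell inside the WT range while its sum did not. V1 genes summed to 29916, 23219 and 24038 in WT and 29959.9, 34461 and 53714 in dKO, and V0 genes to 10572, 9332 and 8793 and 10747, 13038 and 31551. The V0 sum of dKO 3 was set by Atp6v0e, which alone read 19786. LAMP sums were 25618, 21924 and 23691 in WT and 27473, 27971 and 17511 in dKO, where dKO 3 was the lowest of all.

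Members with and without an E-box are set side by side here. Of the 9 tested members with CACGTG in a window, 6 rose, 1 fell and 2 passed neither way in dKO against WT, with a median of 1.01, where 21.9% of all genes rose and 26.5% fell. Of the 13 with windows that lack it, 7 rose, 1 fell and 5 passed neither way, with a median of 0.86. After removal of the length and GC trend the medians were 0.20 and 0.18. Each set held rises and falls: Atp6v0e rose and Atp6v1a fell among members with CACGTG, and Ctsz rose and Atp6v0a1 fell among those without it. A link of the element to these changes was not tested. The remaining 9 tested members had no window in the table.

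Other lysosomal genes were read from lists in the same fit, and in the single knockouts 0 genes of these lists passed. In dKO against WT, 8 of 38 tested lysosomal hydrolases and their activators rose and 11 fell (5 and 6 after removal of the length and GC trend), near the shares over all genes of 21.9% and 26.5% (15.9% and 13.3%), which are the background of every list here. Among them Gm2a, the activator of ganglioside breakdown, rose (log2 change 1.29, adjusted p = 0.000804), and the sulfatase Ids fell (-2.33). Both passed with the trend removed as well. Of 31 genes of the lysosomal membrane and its transporters 5 rose and 5 fell (9 and 1 with the trend removed), with Cd68, a LAMP relative of macrophages, at 414, 409 and 461 in WT and 1663, 2163 and 4952 in dKO (log2 change 2.61, adjusted p = 0.000349), while the transporter Mfsd12 fell with -2.38 and Sidt2 with -1.62. Genes that sort hydrolases by the mannose 6-phosphate tag fell more than they rose, 8 against 3 of 16 (3 and 2 with the trend removed), among them Sort1 (-1.93), Ap1g1 (-2.31) and Gga3 (-1.84). Of these 3 the sorting receptor Sort1 lost its call with the trend removed.

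Of 21 genes of the Ragulator, Rag and mTORC1 machinery, which sits on the lysosome with the pump, 4 rose and 10 fell (4 and 5 with the trend removed). The 3 called genes with the smallest p were Tsc2 (-2.60), Depdc5 (-2.69) and Sesn2 (-2.05), which fell in both fits. They act as brakes on mTORC1, but the list was not divided by role. Whether brakes fell more than its other genes was not tested. Of 11 assembly and regulatory genes of the V-ATPase 2 rose and 4 fell (2 and 1), with log2 changes of -3.40 for Wdr7, -2.24 for Tbc1d24 and 1.38 for the assembly factor Tmem199. The MiT/TFE factors and the repressor Zkscan3, 5 genes, gave 0 rises and 2 falls, Tfe3 (log2 change -1.30, adjusted p = 0.0132) and Mitf (-1.73). Tfeb read 712, 848 and 752 in WT and 710.4, 883 and 542 in dKO and did not pass (-0.14). With the trend removed neither fall was called and Zkscan3 rose (0.72). Of 6 tested cathepsin inhibitors 4 rose and 0 fell (2 and 0): Cst7, cystatin F, read 469.7, 327 and 467 in WT and 2547, 2144 and 8282 in dKO (log2 change 3.10, adjusted p = 0.00127), Cst3, cystatin C, had 1.82 and Serpinb1a 1.36. Ctsg, the neutrophil granule protease cathepsin G, which is no lysosomal cysteine or aspartic cathepsin and lies outside the rule, read 1821, 689 and 1471 (WT), 1707, 1826 and 3887 (Tet2 KO), 1727, 15219 and 5871 (Traf6 KO) and 18893, 18799 and 49911 (dKO) and rose in dKO against WT with log2 change 4.41, adjusted p = 0.000509.

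Markers of other cell types moved with dKO, and their part in the members' changes was not tested. Of 13 neutrophil and monocyte progenitor genes 10 rose and 0 fell in dKO against WT, also with the trend removed. Their summed signal was 17769.7 to 31753 in WT, 51441 to 109264 in Tet2 KO, 20158 to 127884 in Traf6 KO and 131899 to 216731 in dKO, carried mostly by Mpo (15446, 12565 and 23184 in WT and 129731, 81213 and 71836 in dKO) and Prtn3 (2528, 1604 and 2316 in WT and 14840.1, 16918 and 55385 in dKO). Of 10 mast cell and basophil genes 7 rose, with sums of 1453 to 2487 in WT and 7457 to 11893 in dKO (log2 changes of 1.75 for Cpa3 and 4.35 for Mcpt8), 5 rose with the trend removed, and 2 rose in Traf6 KO against WT. Macrophage and dendritic cell genes gave 2 rises and 2 falls of 20 in both fits, and sums of 24265 to 35636 in WT and 20017 to 87412 in dKO, with Lyz2 at 13269, 8078 and 8184 in WT and 10942, 22434 and 42943 in dKO, H2-Ab1 at a log2 change of 0.39 and Marco at 0 reads everywhere. Osteoclast genes, 6 tested, gave 3 falls, 2 with the trend removed (sums 6164 to 7069 and 1508 to 3089; Nfatc1 -1.84, Itgb3 -2.83) and Calcr was at 0 reads. Of 9 mature neutrophil genes 0 passed, and 1 fell with the trend removed (sums 4187 to 8114 and 5506 to 7865; Csf3r -0.54, Ngp 0.66).

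Of the remaining lists, each with its summed signal in WT and then dKO and the log2 changes of its 2 most abundant genes, erythroid genes gave 4 rises of 14, 1 with the trend removed (sums 46673 to 58643 and 87415 to 121955; Car2 0.57, Car1 3.77), and mature B, T and NK cell genes 3 rises of 9, 1 with the trend removed, with sums of 10201 to 14417 and 15115 to 109975 (Ighm 0.83, Nkg7 4565, 3418 and 3889 in WT and 7361, 10721 and 49423 in dKO as signal) and Cd3e and Gzma at 0 reads. Megakaryocyte genes gave 1 rise and 2 falls of 11, 0 and 5 with the trend removed (sums 16162 to 18362 and 10518 to 17798; Itga2b -0.51, Selp 0.24), and stromal and endothelial genes 3 falls of 9, 0 with the trend removed (sums 6439 to 8153 and 3819 to 5409; Pecam1 -0.84, Pdgfrb -1.43). The genes that define LSK cells gave 2 rises and 10 falls of 18, 2 and 6 with the trend removed, with sums of 195373 to 209199.6 in WT and 165665 to 193247 in dKO. All 18 were read in these libraries, the most abundant being Cd34 (39744, 37782 and 52709 in WT and 59383, 56439 and 40877 in dKO) and Lmo2 (28765, 25367 and 29086 in WT and 31637, 47162 and 63667 in dKO).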

How the data were processed

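RNA from sorted LSK cells was measured in 12 libraries of 4 genotypes, 3 each, made with the SMART-Seq v4 kit, which does not mark strand, and sequenced on a HiSeq 4000, per the labels' protocols. The authors deposited 1 table of 37187 genes whose values are a signal, read counts that were each scaled by 1 factor for the whole library. Listed in the submitters' processing notes are STAR, featureCounts, bcl2fastq, DESeq2 and the builds GRCm38 and mm10, with versions, annotation and settings not given in the sources used here. In every library 100.0% of the deposited signal values were whole multiples of 1 read (tolerance 1e-06), worth 0.518 to 1.79 in signal, so whole reads could be recovered.

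Genes reaching a signal of 10 in 3 or more libraries (14045) were tested with limma 3.58.1 in R 4.3.3 (trend and robust moderation) on log2(signal + 1), a pseudocount of 1 that understates changes of low genes. All 12 libraries shared 1 estimate of spread, and Benjamini-Hochberg adjusted p under 0.05 was the threshold. Groups were taken from the sample labels, and 6 comparisons were made. Genes named are all members, the 2 highest per kilobase in each family, up to 3 called genes of each lysosomal list by smallest p, and the 2 most abundant of each cell type list; Tcirg1, Tfeb, Zkscan3, Xist, Eif2s3y, Kit and Ly6a were added after their values were seen. Members and lists were chosen with earlier results of these data known.

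Lengths and coordinates came from GENCODE M21 (GRCm38), in which 30492 genes of the table and all 41 members were found by symbol or synonym. The length and GC trend was a loess fit per library (span 0.5, degree 1) over the 13684 tested genes with a length. Alternatives were a pseudocount of 5, no filter, each library left out, a replicate block, libraries scaled to equal totals, the compared groups alone, edgeR 4.0.16 and DESeq2 1.42.0 on the recovered read counts, and removal of the length and GC trend. Those with the principal transcript, edgeR with the block, and libraries left out together were added after the data were seen. The edgeR quasi-likelihood test called 6539 genes in dKO against WT. The fits were tested on simulated data first. Protein sequences were not used here. One gene that the naming rule selects is not reported here.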

Additional observations from a re-analysis of the deposited data

How the results depend on the processing

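Of 1200 repeats of 48 named member changes under 25 alternatives, 856 kept direction and side of the threshold, 312 lost the call, 11 gained one and 21 changed sign. The cause of these changes was not tested, except that fits on the compared groups alone hold fewer libraries. A pseudocount of 5 kept all 48 named changes. Members called in dKO against WT went from 19 to 12 with the compared groups alone, 11 with the length and GC trend removed without dKO replicate 3, 10 with that trend removed and a replicate block, and 7 with the trend of the principal transcript removed (10 to 23 over the single libraries left out). Members called in dKO against Tet2 KO went from 13 to 0 (compared groups alone, and without both libraries at the WT level of their target), 8 (trend removed, with or without the replicate block), 4 (trend removed, without dKO replicate 3) and 3 (principal transcript), with 1 to 17 over single libraries left out. Members called in dKO against Traf6 KO went from 14 to 1, 9 (trend removed with the replicate block), 6, 5 and 3 in these settings, with 3 to 18 over single libraries left out. Members called in Tet2 KO against WT went from 0 to 1 (Ctsf) with DESeq2, the compared groups alone, and the trend removed with or without dKO replicate 3 (0 to 1 over single libraries left out). For Traf6 KO against WT the range was 0 to 0, and for the interaction 0 to 5, with 1 under DESeq2, equal totals, and the trend removed without dKO replicate 3.

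Signs changed only with the length and GC trend removed. In dKO against WT this held for Atp6v0b (-0.31 with the trend of the longest transcript removed, -0.16 with that of the principal one and -0.27 without dKO 3), Atp6v1f (-0.0064, and -0.12 without dKO 3), Atp6v1g1 (-0.042, and -0.11 without dKO 3) and Atp6v0a2 (0.15 without dKO 3). In dKO against Tet2 KO it held for Atp6v1g1 (-0.012, and -0.076 without dKO 3), and for Atp6v0a2 (0.18) and Atp6v1f (-0.027) without dKO 3, and Atp6v0c (-0.017) with the principal transcript. In dKO against Traf6 KO it held for Atp6v1g1 (-0.0056, and -0.070 without dKO 3) and Atp6v1f (-0.022 without dKO 3). The replicate block left these values as they were.

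The labels number replicates alike in each group. Deviations of same-numbered libraries correlated between -0.177 and 0.193 (median -0.00195), over 0.1 in 3 of 18 pairs. Those of libraries with different numbers ran from -0.194 to 0.224. Same-numbered libraries thus did not stand out, but with so few libraries per group a shared preparation cannot be told from these values. With the replicate block 19, 12 and 12 members were called in dKO against WT, Tet2 KO and Traf6 KO. Depth was 22169673 reads or more per library and did not limit the tested members, whose lowest signal was 192, while 10 members were too low to compare.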

Other observations

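The pattern of Ctse over the 12 libraries, low in 2 libraries of each single knockout and in all of dKO, was compared with every tested gene after its values had been seen. The gene most like it was Mertk, a receptor for apoptotic cells, with a Pearson correlation of log2 values of 0.966 over the 12 libraries, followed by Gpr179 (0.857) and Syt2 (0.851). Mertk read 21.3, 20.6 and 15.4 (WT), 0, 0 and 23.3 (Tet2 KO), 11.8, 0 and 0 (Traf6 KO) and 4.69, 1.3 and 0 (dKO). As with Ctse, Tet2 KO 3 and Traf6 KO 1 were the highest libraries of their groups. These are descriptions of 12 libraries that share 4 groups, with no test.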
